A study of Mus musculus with 6 samples.

Results

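The genes described here are Trp53, which encodes the transcription factor p53, and its direct targets other than Cdkn1a, 38 genes in all. They were matched by gene symbol to a list that was drawn up with earlier results of these data known, and all 38 were present among the 24503 symbols of the count table. All 38 also passed the filter on low counts, which kept 13683 genes for testing, and the lowest count of a member in any library was 8. RNA was sequenced from primary neural stem cells isolated from E13.5 mouse cortex, enriched as neurospheres and then expanded on laminin in FGF (10 ng/mL) and EGF (20 ng/mL). The 3 control libraries (WT) came from Phf2 flox/flox embryos without Cre. The 3 knockout libraries (KO) came from Phf2 flox/flox embryos that also carried the Nestin-Cre transgene, in which sequences of the progenitor gene Nestin drive Cre recombinase. Both groups thus carried the floxed alleles, and only KO carried Cre, so loss of Phf2 and presence of the transgene cannot be told apart. The comparison asks how transcript levels change when Phf2, a histone demethylase of the Jumonji family, is deleted.

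p53 is a transcription factor whose protein is kept low by the ubiquitin ligase MDM2 and is stabilised when DNA is damaged or when oncogenic or ribosomal stress arises. Active p53 binds pairs of a short palindromic half-site and switches on genes that arrest the cell cycle, repair DNA, adjust metabolism or trigger apoptosis, and one of these targets is Mdm2, which closes a feedback loop. In neural stem and progenitor cells p53 is known to limit self-renewal and expansion. Its activity is set mainly at the protein level, so the RNA level of Trp53 and those of its targets are separate readouts.

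Total counts ranged from 33413444 to 46890314 per library, and the members took 0.40% to 0.504% of them. Phf2 was at 109, 90.4 and 77.8 CPM (the count scaled to library size, with TMM factors) in WT 1, 2 and 3 and at 56.3, 48.1 and 48.8 CPM in KO 1, 2 and 3, so each KO library lay below each WT library. A count per gene also takes reads from exons outside a deletion, so it need not fall to 0. Where the remaining Phf2 reads in KO came from was not tested. Phf2 differed by −0.84 ± 0.0743 (log2, SE), with an edgeR adjusted p of 0.000123 with the block described next and 0.182 without it. The stem cell markers Nes (1046 and 1104 CPM, means of WT and KO), Sox2 (466 and 537 CPM) and Vim (4591 and 4567 CPM) were abundant. The leukocyte and microglial genes Ptprc, Aif1 and Tyrobp and the endothelial gene Cdh5 had 0 counts in all libraries, while Olig1 (2391 and 2042 CPM), a gene of the oligodendrocyte lineage that cultured stem cells also express, was high. Other microglial and endothelial markers were detected at low levels. Cd68 reached 3.198 CPM, and 3 endothelial and mural markers summed to at most 2.204 CPM. Libraries numbered 1 stood apart from numbers 2 and 3 in both groups, and same-numbered WT and KO libraries deviated together. Each test is therefore given both with the library number as a blocking factor (written as "with the block") and without it. Numbers 2 and 3 were not told apart. Deviations of WT 2 from its group mean correlated at 0.804 with those of KO 3 and at 0.731 with those of KO 2. Which libraries form pairs 2 and 3 therefore rests on the titles.

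Most of the 38 genes were lower in KO cells, though few passed a test. Gdf15, a secreted stress cytokine, Perp, a membrane protein of p53-dependent cell death, the death receptors Tnfrsf10b and Fas, Ddit4l, a repressor of mTOR signalling, the atypical cyclin Ccng1, the phosphatase Ptp4a3 and the ubiquitin ligase subunit Fbxw7 fell with the block. Their changes ran from −17.4% for Fbxw7 to −41.6% for Gdf15. Plk2, a polo-like kinase, rose by 19.0%, and Trp53 itself did not pass in either fit. With the block 8 of the 38 members (21.1%) were called lower, against 6.46% of all genes tested, and 1 (2.63%) was called higher, against 3.33% (9.79% in either direction). Called means a Benjamini-Hochberg adjusted p under 0.05 in edgeR's quasi-likelihood test, taken over the 13683 genes together. Lower RNA per cell and fewer cells that carry a transcript cannot be told apart in bulk RNA.

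Without the block edgeR called 0 of the 38 members and 0.0585% of all genes. Of the members, 8 had an unadjusted p under 0.05 without the block, as did 795 of the 13683 genes, and DESeq2 without the block also called 0, against 1.6% of its genes. The lowest adjusted p of a member without the block was 0.332, for Tnfrsf10b. The log2 fold changes hardly differed between the fits, with a median over the members of −0.16 without the block and −0.15 with it, beside 0.01 over all genes in both. Other fits with a block and all libraries called 9 to 12 members, except 1: 11 where the block was number 1 versus the rest (10.6% of all genes), 11 with upper-quartile scaling (9.57%), 12 without the filter (9.5%) and 9 in DESeq2 (8.49%). The exception, with the closely similar KO 2 and KO 3 summed as 1 library, called 3 members, all lower, against 4.94% of all genes in either direction and 3.8% lower.

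Of the 29 members not called with the block, 25 had a log2 fold change below 0, against 46.3% of all genes not called. Counting the called ones, 33 of the 38 members were below 0 with the block, against 48.2% of all genes tested. In 25 members the KO library was lower than the WT library of the same number in all 3 pairs, against 23.6% of all genes, and in 3 (Trp53, Plk2 and Sesn1) it was higher in all 3, against 22.6%. All 3 KO libraries lay below all 3 WT libraries for 12 members (31.6%), against 6.71% of all genes. These 12 were Mdm2, Ccng1, Bax, Perp, Pidd1, Tnfrsf10b, Fbxw7, Phlda3, Sesn2, Ddit4l, Gdf15 and Sulf2. No member had all KO libraries above all WT libraries, against 4.49% of all genes. Taken by pair, 32, 31 and 30 members were lower in KO in pairs 1, 2 and 3, where 49.9%, 46.1% and 52.9% of all genes were.

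**Figure D1:**
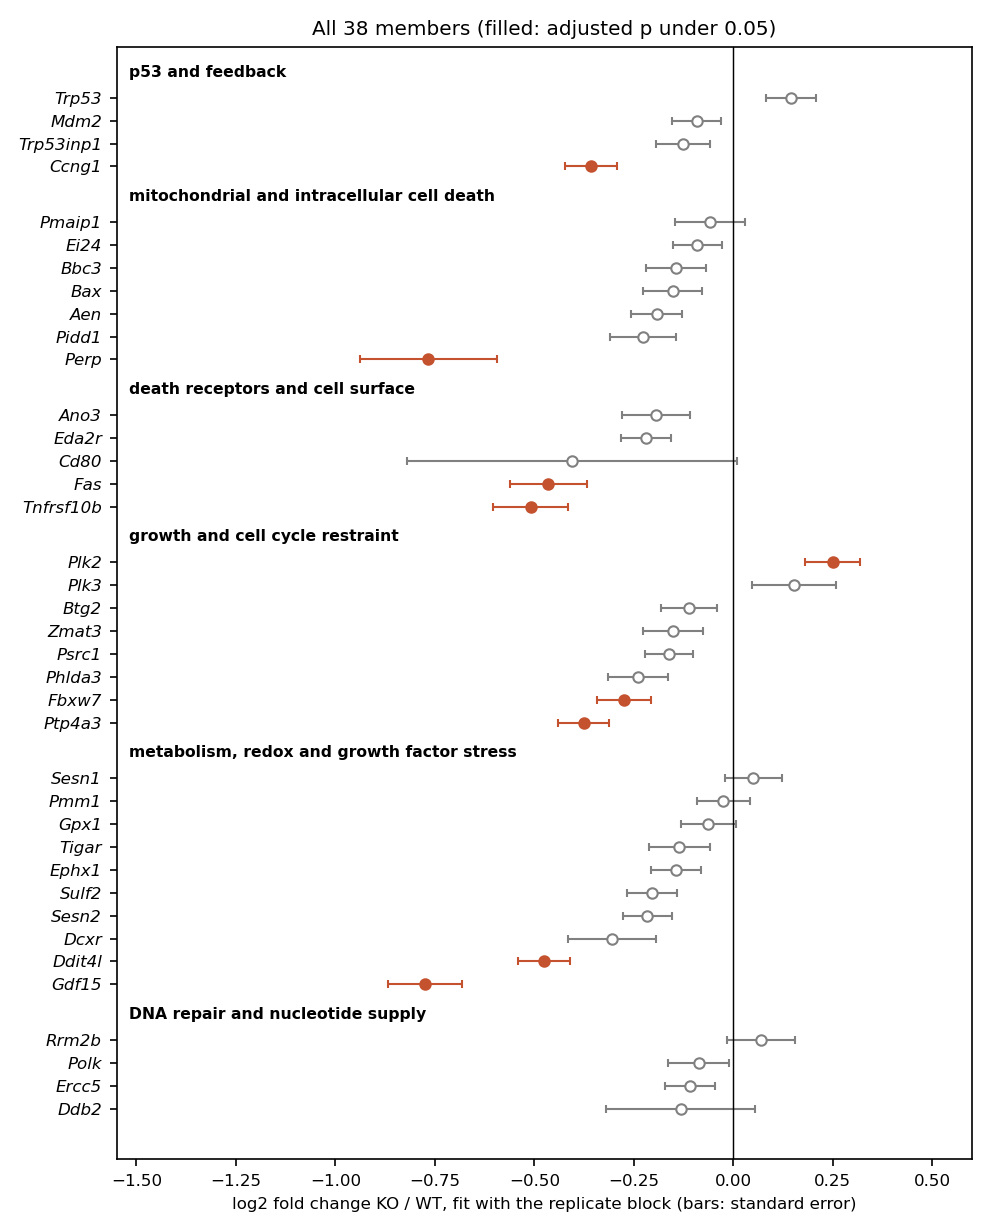
Log2 fold change of KO over WT for each of the 38 members, by role, from the fit with the replicate block, with bars for the standard error. Filled points have an adjusted p under 0.05; 33 points lie below 0, and the called ones run from −0.77 (Gdf15) to 0.25 (Plk2).

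The members spanned a wide range of expression. Per kilobase of annotated exon, Ccng1 had the highest WT level at 182 CPM per kb, followed by Ephx1 at 151, Bax at 133 and Gpx1 at 112 CPM per kb. Trp53 was at 29.2 and Mdm2 at 21.5 CPM per kb in WT. The lowest were Ddb2, at 0.731 CPM per kb, and Cd80, at 0.137 CPM per kb. In CPM, 18 members had a mean over 100 and 3 (Perp, Ddb2 and Cd80) a mean under 5, and these 3 had the largest standard errors with the block.

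Trp53 (chromosome 11, 69580359 to 69591873, plus strand, GRCm38) was at 142, 102 and 111 CPM in WT 1, 2 and 3 and at 153, 120 and 118 CPM in KO 1, 2 and 3. Each KO library was slightly above its WT partner, but the groups overlapped, and the difference of 0.15 ± 0.0632 (log2, SE) had adjusted p = 0.196 with the block and 0.999 without it. Mdm2 (chromosome 10, 117688875 to 117710758, minus strand) varied little, at 108, 112 and 108 CPM in WT and 103, 101 and 103 CPM in KO. Its groups did not overlap, yet the difference was small, −0.09 ± 0.0615 (log2, SE), and did not pass (adjusted p = 0.413 with the block).

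Ccng1 (chromosome 11, 40748552 to 40755311, minus strand) encodes cyclin G1, which recruits a phosphatase to MDM2. It was at 573, 695 and 656 CPM in WT and 465, 512 and 521 CPM in KO. No KO library reached a WT level. The difference of −0.36 ± 0.066 (log2, SE) had adjusted p = 0.00778 with the block and 0.548 without it. Trp53inp1, an autophagy and stress gene that enhances p53 activity, was at 232, 444 and 390 CPM in WT and 207, 380 and 393 CPM in KO, which overlap (−0.13 ± 0.0686, adjusted p = 0.305 with the block).

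Promoter sequence was examined for these genes because most differed in the same direction. The promoter table of RefSeq (build GRCm38.p6), with windows from 250 bases before to 50 bases after an annotated start, held 30 of the 38 members. An exact p53 half-site, a palindrome of 10 bases searched on both strands, lay in a window of 9 of these 30 members, against 8.36% of all 32851 windows and 9.55% of the 27025 genes with a window. Of the 6 members with a window that were called with the block, Ccng1 and Ddit4l held one. A pair of half-sites at most 13 bases apart with at most 1 mismatch in the 20 bases lay in windows of Ccng1, Bax and Polk, 3 of the 30 members, against 1.24% of genes with a window. Windows of this length leave out introns, where p53 also binds. The members were listed as p53 targets, so a larger share than among all genes follows from that choice. It is not a result of the comparison of KO with WT.

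Shown are bases −250 to −51 before the start, on the gene's strand, for the called members Ccng1 and Ddit4l and the uncalled Bax and Mdm2, which hold a half-site (in capitals), and for Gdf15 and Plk2, called in opposite directions, which hold no exact half-site in this stretch.
Ccng1, chr11:40755337-40755536, minus strand: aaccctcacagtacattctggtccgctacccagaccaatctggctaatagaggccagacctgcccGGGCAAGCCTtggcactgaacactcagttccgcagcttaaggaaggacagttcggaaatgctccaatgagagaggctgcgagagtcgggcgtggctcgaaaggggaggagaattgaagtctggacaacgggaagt
Ddit4l, chr3:137623422-137623621, plus strand: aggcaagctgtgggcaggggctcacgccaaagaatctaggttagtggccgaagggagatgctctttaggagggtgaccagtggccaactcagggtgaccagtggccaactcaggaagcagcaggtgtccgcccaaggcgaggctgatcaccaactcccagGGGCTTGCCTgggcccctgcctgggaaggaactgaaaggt
Bax, chr7:45466949-45467148, minus strand: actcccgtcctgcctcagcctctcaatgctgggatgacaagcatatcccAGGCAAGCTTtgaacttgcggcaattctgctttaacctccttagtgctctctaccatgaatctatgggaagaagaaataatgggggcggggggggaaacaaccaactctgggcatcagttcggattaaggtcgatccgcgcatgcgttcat
Mdm2, chr10:117710809-117711008, minus strand: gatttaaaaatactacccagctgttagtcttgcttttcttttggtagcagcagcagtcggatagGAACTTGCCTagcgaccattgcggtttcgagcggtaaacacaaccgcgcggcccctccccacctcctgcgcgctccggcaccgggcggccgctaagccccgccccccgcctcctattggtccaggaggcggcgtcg
Gdf15, chr8:70632507-70632706, minus strand: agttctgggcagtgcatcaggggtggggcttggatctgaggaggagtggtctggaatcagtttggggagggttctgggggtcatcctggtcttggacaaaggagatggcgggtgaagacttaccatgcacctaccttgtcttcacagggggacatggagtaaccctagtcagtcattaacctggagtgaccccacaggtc
Plk2, chr13:110394794-110394993, plus strand: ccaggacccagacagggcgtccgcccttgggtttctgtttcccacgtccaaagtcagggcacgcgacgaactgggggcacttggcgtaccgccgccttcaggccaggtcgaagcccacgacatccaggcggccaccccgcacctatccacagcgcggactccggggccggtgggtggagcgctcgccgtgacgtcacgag

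The paired half-sites are shown on their own, with half-sites in capitals and any spacer in lower case, because they come closest to a full p53 response element.
Ccng1, chr11:40755462-40755481, minus strand: AGACCTGCCCGGGCAAGCCT
Bax, chr7:45467090-45467110, minus strand: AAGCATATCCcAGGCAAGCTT
Polk, chr13:96519398-96519418, minus strand: GAACTAGCCTcAAACTTATTC
The remaining half-sites belonged to Aen, Ei24, Sesn1 and Trp53, none of which was called in either fit. Ccng1 was thus the only called member with a paired site in its window, and Bax and Polk, which also have one, did not pass.

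Of the 7 members grouped under mitochondrial and intracellular cell death, which leaves out the death receptors, Perp was the sole call with the block. Perp encodes a membrane protein of p53-dependent cell death, so the name of the group does not describe its location. All 7 had a log2 fold change below 0, against 48.2% of all genes, and 6 of them were lower in KO in all 3 pairs, against 23.6%. Perp (chromosome 10, 18845020 to 18857073, plus strand) was at 3.72, 4.39 and 4.26 CPM in WT 1, 2 and 3 and 2.87, 2.31 and 2.08 CPM in KO 1, 2 and 3. The groups did not overlap, and the difference was −0.77 ± 0.172 (log2, SE), with adjusted p = 0.0203 with the block and 0.438 without it. Its counts ran from 70 to 201 per library, so its level is low and its standard error is among the larger ones. The call was lost with KO 2 and KO 3 summed (adjusted p = 0.0758) and, with the block, without pair 3 (adjusted p = 0.08).

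Bax, the pore-forming effector of mitochondrial apoptosis, was at 200, 193 and 233 CPM in WT and 189, 190 and 183 CPM in KO. Its groups were separated, but by little, and it did not pass (−0.15 ± 0.074, adjusted p = 0.249 with the block). Exons of Gm45808 on the same strand cover 12.2% of its exonic length, so its counts may hold reads of that gene. Bbc3 and Pmaip1, which encode the BH3-only proteins PUMA and NOXA, differed by −0.14 ± 0.0749 and −0.06 ± 0.0879 (log2, SE) and overlapped between the groups. The exonuclease gene Aen (−0.19 ± 0.0645, adjusted p = 0.0951), Pidd1, the scaffold that activates caspase-2 (−0.23 ± 0.0825, adjusted p = 0.121), and Ei24, an endoplasmic reticulum protein gene with the highest CPM of this role (−0.09 ± 0.0612, adjusted p = 0.419), also stayed short of the threshold with the block.

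The death receptors were lower in KO. Tnfrsf10b (chromosome 14, 69767472 to 69784411, plus strand), the mouse receptor for the ligand TRAIL, was at 30.5, 33.8 and 35.5 CPM in WT and 25.7, 21.6 and 22.9 CPM in KO. All KO libraries were below all WT libraries, with a log2 fold change of −0.51 ± 0.0942 (SE) and adjusted p = 0.00782 with the block and 0.332 without it. Fas (chromosome 19, 34290666 to 34327772, plus strand), the receptor for FAS ligand, was at 7.31, 14.9 and 16.0 CPM in WT and 5.35, 10.7 and 11.6 CPM in KO.

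Fas was low in both libraries numbered 1, so its groups overlapped although KO was lower in each pair, with log2 ratios of −0.416, −0.461 and −0.448 in pairs 1, 2 and 3. It differed by −0.46 ± 0.0974 (log2, SE), with adjusted p = 0.0146 with the block and 0.999 without it. Eda2r, a receptor for ectodysplasin A2 that lies on the X chromosome, just missed the threshold with the block (−0.22 ± 0.0631, adjusted p = 0.0572), at 127, 115 and 101 CPM in WT and 107, 95.1 and 91.6 CPM in KO. The anoctamin gene Ano3 (adjusted p = 0.197) and the T cell costimulator gene Cd80, with 8 to 25 counts per library, did not pass.

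**Figure D2:**
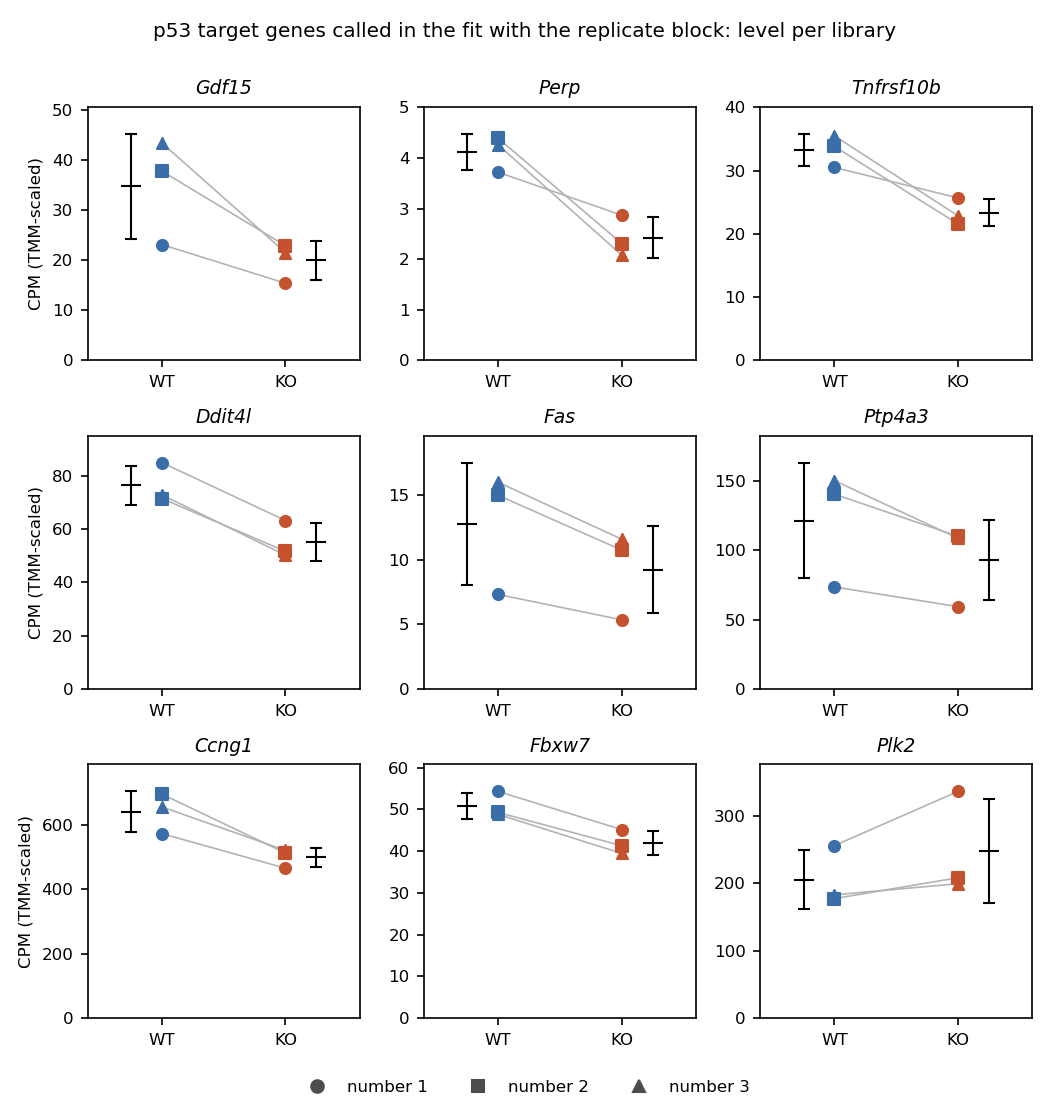
CPM of the 9 members called with the block in each of the 6 libraries, ordered by fold change, with lines joining WT and KO libraries of the same number and black bars for mean ± SD (n = 3). The 8 members that fell are lower in KO in all 3 pairs; for Fas, Ptp4a3 and Plk2 the groups overlap because the libraries numbered 1 sit apart.

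Regulators of growth and the cell cycle included the one member that rose. Plk2 (chromosome 13, 110395046 to 110400844, plus strand) was at 256, 177 and 183 CPM in WT and 336, 208 and 199 CPM in KO. KO was higher in each pair, with log2 ratios of 0.393, 0.231 and 0.124, but the groups overlapped, and the log2 fold change of 0.25 ± 0.0691 (SE) had adjusted p = 0.0487 with the block and 0.999 without it. The call was lost with upper-quartile scaling and the block (adjusted p = 0.087), in numbers 2 and 3 alone (adjusted p = 0.173) and with KO 2 and KO 3 summed (adjusted p = 0.12). Without KO 1, in the fit without the block, the log2 fold change was −0.01. Plk3, a related kinase, was at 15.3, 18.0 and 20.0 CPM in WT and 14.0, 23.7 and 22.6 CPM in KO and did not pass (0.15 ± 0.105, adjusted p = 0.432 with the block).

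Ptp4a3 (chromosome 15, 73723145 to 73758766, plus strand), a phosphatase gene linked to cell motility and cell cycle control, was at 73.5, 140 and 150 CPM in WT and 59.4, 110 and 109 CPM in KO. The groups overlapped, again through the libraries numbered 1, and the difference of −0.38 ± 0.0642 (log2, SE) came with adjusted p = 0.00514 with the block and 0.999 without it. Fbxw7 (chromosome 3, 84815268 to 84979198, plus strand), which marks cyclin E, MYC and NOTCH for degradation, was at 54.3, 49.3 and 48.8 CPM in WT and 45.2, 41.3 and 39.5 CPM in KO. Its groups did not overlap, and its log2 fold change of −0.28 ± 0.0678 (SE) had adjusted p = 0.0312 with the block and 0.775 without it.

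The other members of this role did not pass. Phlda3, a repressor of AKT signalling, came nearest with the block, at 141, 137 and 161 CPM in WT and 124, 128 and 119 CPM in KO (−0.24 ± 0.0752, adjusted p = 0.0764). The spindle gene Psrc1 (−0.16 ± 0.0603), the RNA-binding protein gene Zmat3 (−0.15 ± 0.0757) and the antiproliferative gene Btg2 (−0.11 ± 0.0702, log2, SE) were nearer 0. Btg2 was at 82.0 and 67.4 CPM in WT 1 and KO 1 and between 217 and 224 CPM in the other 4 libraries, so nearly all its spread followed the library number.

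Gdf15 and Ddit4l were the calls among stress and metabolism genes. Gdf15 (chromosome 8, 70629393 to 70632456, minus strand) was at 23.1, 37.8 and 43.4 CPM in WT 1, 2 and 3 and 15.4, 22.9 and 21.6 CPM in KO 1, 2 and 3. KO 2, the highest KO library, lay just below WT 1, the lowest of the controls. The difference was −0.77 ± 0.0933 (log2, SE; adjusted p = 0.000696 with the block and 0.677 without it), and the pairs gave −0.57, −0.71 and −0.994 (log2).

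Ddit4l (chromosome 3, 137621612 to 137628333, plus strand) was at 84.9, 71.4 and 72.8 CPM in WT and 63.2, 51.7 and 50.2 CPM in KO, without overlap. It differed by −0.48 ± 0.0653 (log2, SE), with adjusted p = 0.0015 with the block and 0.47 without it. Gdf15, Ddit4l and Ptp4a3 were the 3 members called when KO 2 and KO 3 were summed.

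Sesn2 and Sesn1 encode sestrins, which restrain mTORC1. Sesn2 was at 100, 111 and 105 CPM in WT and 87.6, 93.8 and 90.4 CPM in KO and just missed the threshold with the block despite separated groups (−0.22 ± 0.0613, adjusted p = 0.0545). Sesn1 was nearly level (0.05 ± 0.0721, log2, SE). Sulf2, an extracellular sulfatase gene and the most abundant of this role in CPM, was at 550, 517 and 510 CPM in WT and 486, 450 and 433 CPM in KO, again without overlap (−0.21 ± 0.0629, adjusted p = 0.0712 with the block).

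The remaining metabolic members were Dcxr, a xylulose reductase gene (−0.31 ± 0.111), the epoxide hydrolase gene Ephx1 (−0.14 ± 0.0627), Tigar, a regulator of glycolysis (−0.14 ± 0.0761), the glutathione peroxidase gene Gpx1 (−0.06 ± 0.0683) and the phosphomannomutase gene Pmm1 (−0.02 ± 0.0675, log2, SE, all with the block). None of them passed, and the WT and KO values of each overlapped. Dcxr was at 25.9, 37.6 and 48.2 CPM in WT and 25.5, 32.2 and 30.5 CPM in KO, so its mean difference came mostly from WT 2 and WT 3.

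DNA repair members showed small differences. None of the 4 was called in either fit, and their log2 fold changes with the block ran from −0.13 to 0.07. Ercc5, a nuclease of nucleotide excision repair, was at 68.2, 86.2 and 82.9 CPM in WT and 63.9, 78.1 and 78.0 CPM in KO (−0.11 ± 0.0629, adjusted p = 0.339 with the block). Rrm2b, the p53-inducible ribonucleotide reductase subunit, was at 19.4, 19.8 and 19.3 CPM in WT and 21.3, 18.9 and 21.2 CPM in KO. Polk, a translesion polymerase gene, differed by −0.09 ± 0.0774 and Ddb2, a damage sensor gene, by −0.13 ± 0.188 (log2, SE). Exons of Acp2 on the opposite strand cover 23.8% of the exonic length of Ddb2, and whether counting used the strand is not known here. None of the 9 called members shares exonic sequence with another annotated gene.

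**Figure D3:**
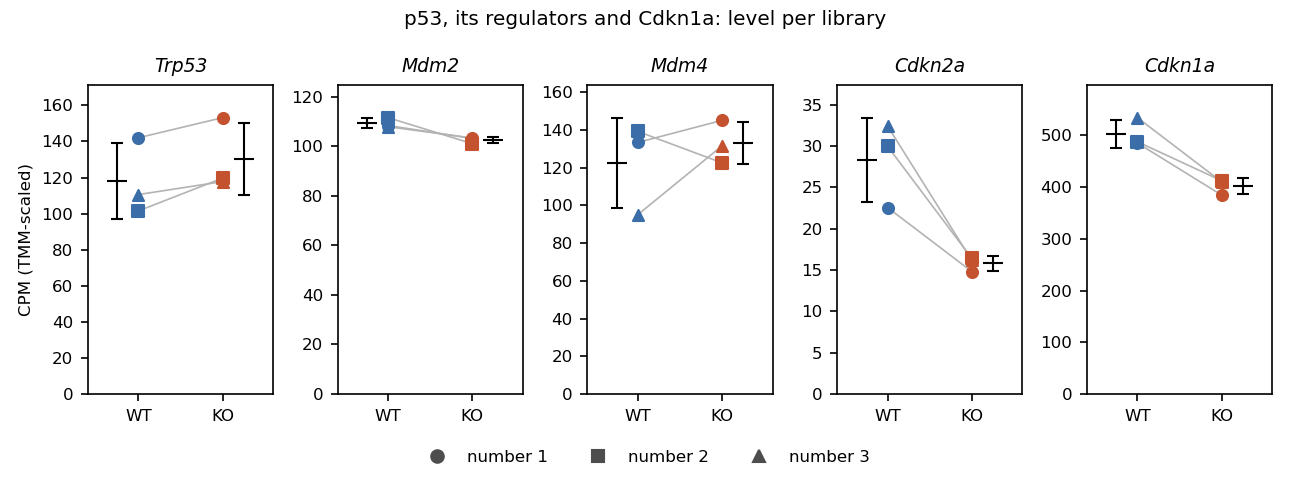
CPM of Trp53, Mdm2, Mdm4, Cdkn2a and Cdkn1a in each library, with lines joining WT and KO libraries of the same number and black bars for mean ± SD (n = 3). Cdkn2a and Cdkn1a are lower in each of the 3 KO libraries than in every control, while Trp53 and Mdm4 overlap between the groups.

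Among genes that regulate p53, Cdkn2a had the clearest difference. It encodes ARF, which inhibits MDM2, and the CDK inhibitor INK4A from overlapping transcripts that these counts do not separate. It was at 22.5, 29.9 and 32.4 CPM in WT and 14.8, 16.4 and 16.2 CPM in KO. The groups were well separated, with a log2 fold change of −0.83 ± 0.0935 (SE) and adjusted p = 0.000503 with the block and 0.206 without it. Of the 26 tested genes on the list of p53 regulators, 1 fell and 2 rose with the block. Of all genes tested, 6.46% fell and 3.33% rose. Without the block none of the regulators passed in edgeR.

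The 2 that rose with the block were Sirt1, a deacetylase of p53 (controls at 27.3 ± 1.37 CPM, knockouts at 33.5 ± 1.76 CPM, SD, n = 3; adjusted p = 0.0483), and Twist1, a repressor of p53 function. Twist1 had 3, 0 and 0 counts in WT and 28, 32 and 16 counts in KO, so it stayed near the limit of detection. Mdm4, the partner of MDM2, was at 133, 139 and 95.1 CPM in WT and 145, 123 and 132 CPM in KO and did not pass, nor did Ppm1d (41.3 ± 1.73 and 42.5 ± 0.812 CPM, SD, n = 3), a phosphatase gene of the p53 pathway. The median log2 fold change of the regulators with the block was 0.11. The p53 relatives Trp63 and Trp73 had at most 2 and 29 counts in a library, so Trp53 was the only well expressed gene of the family.

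Targets of p53 outside the member list were split between higher and lower. Of 25 tested, 3 fell and 0 rose with the block, against 6.46% and 3.33% of all genes. A log2 fold change below 0 was found in 11, against 48.2% of all genes, and the median was 0.01. The strongest by p was Cdkn1a, the CDK inhibitor through which p53 arrests the cell cycle, at 485, 488 and 534 CPM in WT and 385, 412 and 410 CPM in KO. Its groups did not overlap, with a log2 fold change of −0.32 ± 0.0648 (SE) and adjusted p = 0.0125 with the block and 0.47 without it. The others were the ephrin receptor gene Epha2 (−0.77 ± 0.175, adjusted p = 0.0214 with the block) and the peptide transporter gene Tap1 (−0.29 ± 0.0782, adjusted p = 0.0473 with the block). Whether the members differ as a group from these other targets was not tested.

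Genes bound by the DREAM complex, which lowers mitotic genes when p53 is active, were mostly higher in KO. Of 18 tested, 7 rose and 0 fell with the block, against 3.33% and 6.46% of all genes, and 0 passed without it. All 18 had a log2 fold change above 0, with a median of 0.26 with the block, while 48.2% of all genes were below 0. Aurkb (0.36 ± 0.0758, adjusted p = 0.0151), Bub1b (0.28 ± 0.0672, adjusted p = 0.0287) and Kif23 (0.29 ± 0.0734, adjusted p = 0.0336), kinase and motor genes of mitosis, had the lowest p. The same 18 genes were all called higher in the libraries numbered 1 than in numbers 2 and 3, against 28.2% of all genes. Their level thus also followed the library number. These genes mark dividing cells in general, and in bulk RNA more cells in mitosis and more RNA per cell cannot be told apart.

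BCL2 family and caspase genes outside the members were mixed. With the block 3 of 21 were higher and 0 lower, against 3.33% and 6.46% of all genes. Birc5 (0.25 ± 0.0657), which is also on the DREAM list, Bok (0.29 ± 0.0769) and Bcl2l11, which encodes BIM (0.30 ± 0.0837, log2, SE), were the 3. Of 12 genes of the integrated stress response, which also induces Gdf15 and Sesn2, Ddit4 (−0.38 ± 0.0676) and Atf5 (−0.28 ± 0.0729) fell and Vldlr (0.43 ± 0.0905, log2, SE) rose with the block. The shares of all genes were 6.46% and 3.33%. Ddit4 is the closest relative of Ddit4l and was at 66.4, 115 and 128 CPM in WT and 47.6, 95.9 and 96.5 CPM in KO.

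**Figure D4:**
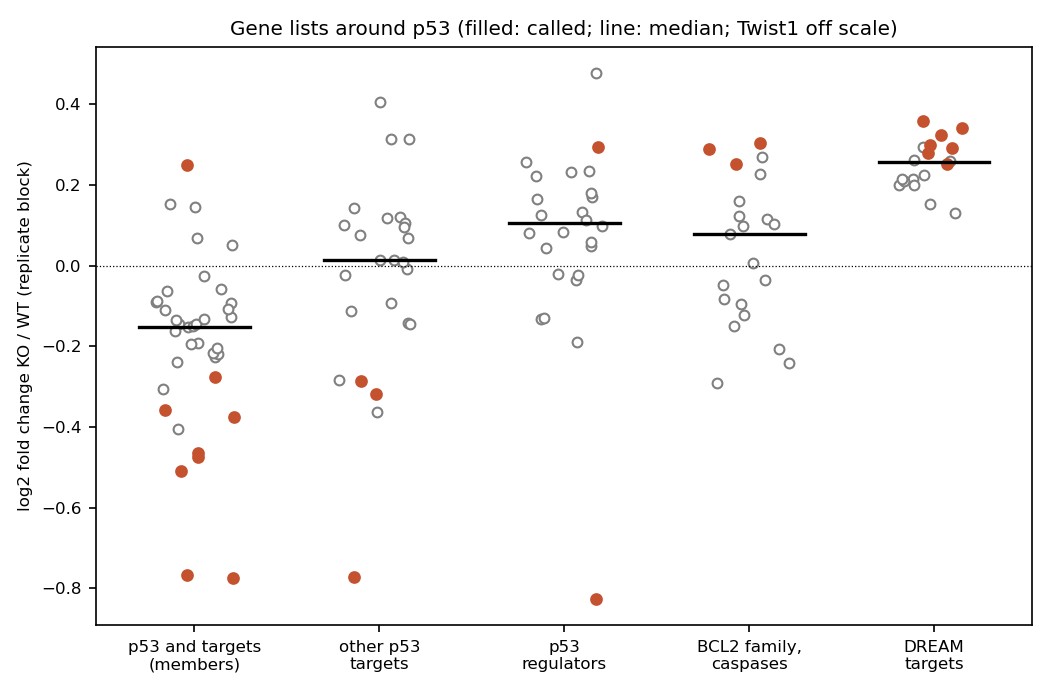
Log2 fold change of KO over WT with the replicate block for each tested gene of 5 lists, with filled points for an adjusted p under 0.05 and a line at the median. Medians are −0.15 for the members, 0.01 for other p53 targets, 0.11 for regulators, 0.08 for BCL2 family genes and caspases and 0.26 for DREAM targets; Twist1 (4.65) lies off the scale.

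Markers of other cell types were present and some differed with the block, which called 9.79% of all genes. Of 5 astrocyte markers Aldh1l1 (−1.97 ± 0.123) and Gfap (−1.12 ± 0.126) fell and Aldoc (0.29 ± 0.0758) rose, with a summed level of 307.2 to 1044 CPM in WT and 298.2 to 867.2 CPM in KO. Of 7 neuron markers Syt1 (−0.93 ± 0.0797) and Stmn2 (−1.38 ± 0.363) fell, of 6 oligodendrocyte lineage markers Sox10 (−0.92 ± 0.121) fell and Pdgfra (0.56 ± 0.0696) rose, and of 10 stem cell markers Prom1 (−1.35 ± 0.13) fell and Hes5 (0.32 ± 0.0687, log2, SE) rose. Their part in the differences of the members was not tested. Of 3 tested meningeal and fibroblast markers Foxc1 (0.36 ± 0.0779) rose and Col1a2 (−1.91 ± 0.369) fell, at a summed level of 34.49 to 46.03 CPM in WT and 39.33 to 64.45 CPM in KO, with Dcn at 0. Of 7 microglial markers only 1, Cd68, passed the filter on low counts, at up to 3.198 CPM. Of 7 endothelial and mural markers 3 passed the filter, summing to at most 2.204 CPM and led by Kdr. None of these tested genes was called.

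Members differed by library number about as often as all genes did. Between number 1 and numbers 2 and 3, with the genotype as a covariate, edgeR called 22 of the 38 members (57.9%), against 57.6% of all genes. In number 1, 7 of them were higher, against 28.2% of all genes, and 15 lower, against 29.4%. For 21 members this difference was larger in size than the one between KO and WT with the block. The share of all genes for which this held was not counted. Over all genes, 57.6% were called for the number and 9.79% for the genotype with the block. Btg2 (−1.56 ± 0.0719), Fas (−1.07 ± 0.0974), Ptp4a3 (−0.93 ± 0.0614) and Trp53inp1 (−0.87 ± 0.0694) were lower in number 1, and Tigar (0.77 ± 0.0667), Plk2 (0.62 ± 0.0635), Aen (0.47 ± 0.0588) and Trp53 (0.39 ± 0.0575, log2, SE) were higher. By sign, 24 of the 38 members were below 0 for the number, with a median of −0.07 against −0.01 over all genes. How many of all genes were below 0 for the number was not counted. For the genotype with the block 33 of the 38 were below 0, against 48.2% of all genes. Whether the 2 differences are related was not tested.

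Of the 8 members called lower in KO, 4 (Fas, Ptp4a3, Gdf15 and Ccng1) were also called lower in number 1 and 1 (Ddit4l) was called higher there. Perp (0.06 ± 0.168), Tnfrsf10b (0.01 ± 0.0963) and Fbxw7 (0.15 ± 0.0607, log2, SE) were not called for the number. In numbers 2 and 3 alone, without a block, 7 members were called, all lower, against 3.57% of all genes (5.4% in either direction). They were Ccng1, Ddit4l, Fas, Gdf15, Perp, Ptp4a3 and Tnfrsf10b, each also lower in KO 1 than in WT 1. In that pair 32 of all 38 members were lower in KO, as were 49.9% of all genes. What the number stands for is not given in the labels.

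**Figure D5:**
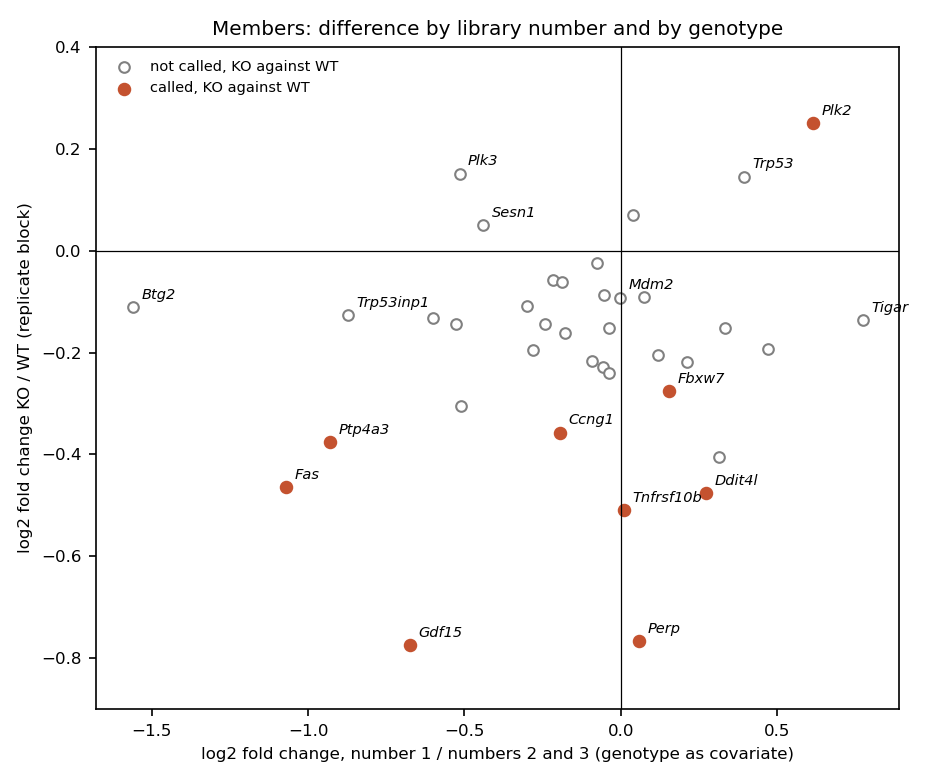
Log2 fold change between number 1 and numbers 2 and 3 (horizontal) against that between KO and WT with the replicate block (vertical) for the 38 members, filled where the genotype difference was called. The horizontal spread runs from −1.56 (Btg2) to 0.77 (Tigar) on both sides of 0, while most points lie below the horizontal zero line.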

How the data were processed

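The values are raw counts, deposited as whole numbers in 1 column for each library and 1 row for each gene symbol. Per the submitters' processing notes, FastQC, cutadapt, Trim Galore, Bowtie2 and RSEM were used with build mm10; their versions, the annotation, the use of strand and the rounding of RSEM estimates are points not given in the sources used here. Groups and replicate numbers came from the sample titles. The members and lists were chosen with earlier results of these data known.

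Counts were analysed as deposited in R 4.3.3 with edgeR 4.0.16 (filterByExpr, TMM, robust quasi-likelihood fit to all 6 libraries, two-sided, Benjamini-Hochberg over 13683 genes); DESeq2 1.42.0 was an alternative. Standard errors are the log2 fold change over the square root of F. The edgeR script was tested on simulated counts. Pair differences are log2 of CPM + 0.5. The labels name no separate cultures or embryos, so the p-values rest on the spread among these libraries, and that spread may be technical.

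Deviations from group means, on log2 of CPM + 2, correlated at 0.924, 0.731 and 0.675 for same-numbered WT and KO libraries. All were over the 0.1 limit for treating numbers as pairs. WT 1 correlated at −0.841 with KO 2 and −0.863 with KO 3, so pair 1 comes from the data. Numbers 2 and 3 were not told apart, as crossing them gave 0.804 (WT 2, KO 3) and 0.706 (WT 3, KO 2). The limit therefore does not decide pairs 2 and 3, which rest on the titles. KO 2 and KO 3 were the closest libraries, with a median chi-square per gene of 1.02, against 5.25 for WT 2 and WT 3. The 95% limit for counting noise was exceeded by 19.5% of genes, against 55.6% for WT 2 and WT 3. Such an excess over counting noise does not show that KO 2 and KO 3 came from separate cultures. They were kept as 2 samples in the main fits, and summing them left 3 members called.

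Positions and exonic lengths are from GENCODE vM21 (GRCm38, which mm10 names), 1-based; all 38 members matched 1 gene. Named genes were Phf2, Trp53, Mdm2 and Cdkn1a, members called in either fit, the most abundant member per role, and per other list up to 3 called genes by p with the block, or the most abundant; further members are named to account for all, and Ppm1d, Mdm4, Trp63, Trp73 and individual markers were named after their values were seen. Cop1 was on the regulator list under a symbol not in the table. Fits without the block, by number, other scaling, filter and tool, and without single libraries or pairs were compared.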

Additional observations from a re-analysis of the deposited data

How the results depend on the processing

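The replicate block decided whether members were called: 0 without it and 9 with it (8 lower), against 8 and 1340 of all genes. Blocking on number 1 versus the rest called 11 members and 1445 genes. Using just numbers 2 and 3 called 7 and 743, and summing KO 2 with KO 3 called 3 and 688. With the block, upper-quartile scaling gave 11 members and 1310 genes, no filter on low counts 12 and 1661, and DESeq2 9 and 1196; DESeq2 without the block gave 0 and 242. Leaving out single libraries without the block gave 0 members and 0 to 21 genes, the 21 without WT 1. Leaving out pairs with the block gave 7 to 14 members and 1037, 1248 and 1456 genes without pairs 1, 2 and 3; the 14 came without pair 3. Called members of other lists were 3 other p53 targets and 3 regulators with the replicate block and with number 1 as the block, 0 and 2 using just numbers 2 and 3, 1 and 2 after summing KO 2 with KO 3, 3 and 2 with upper-quartile scaling and the block, 4 and 3 without a filter and with the block, 2 and 2 in DESeq2 with the block and 0 and 2 in DESeq2 without it. Over fits without a library or pair they ranged from 0 to 3 and from 0 to 7. For number 1 against the others, 14 to 28 members were called when a library was left out, 14 without WT 1 (37% of all genes) or KO 1 (40.1%) and 28 without WT 3 (66.9%). Plk2 changed sign without KO 1 in the fit without the block (−0.01082 on the log2 scale, 0.4747 without WT 1); the cause was not tested. Gdf15, Ddit4l and Ptp4a3 were called in each of the fits named here that had a block, and in numbers 2 and 3 alone.

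Counts depend on few libraries, with 3 per group. Members with few counts, such as Cd80, Ddb2 and Perp, allow only large differences to be seen.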
